A study of Mus musculus with 6 samples.

Results

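The genes described here encode translation initiation and elongation factors, and they were compared between NMuMG cells given siRNA against Mnt and control cells. They were taken by name: every gene whose symbol starts with Eif or Eef followed by a number, leaving out the eIF2 kinases (Eif2ak), and whose mean over the 6 libraries was 10 normalised read counts or more. That gave 60 genes among the 12568 that reached the same mean and among 14526 in the deposited table. 62 symbols fitted the name, and the 2 under the limit were the methyltransferase gene Eef1akmt3 (mean 1.77) and the read-through locus Eef1akmt4-ece2 (mean 3.31). The member with the lowest mean was Eif4ebp3 at 172, so no member lay near the limit. The name brings in 5 methyltransferases that modify elongation factors (Eef1akmt1, Eef1akmt2, Eef1akmt4, Eef1aknmt and Eef2kmt), the eEF2 kinase Eef2k, the tRNA synthetase complex protein Eef1e1 and the exon junction helicase Eif4a3, which are not themselves initiation or elongation factors. It also brings in Eif4ebp1, Eif4ebp2, Eif4ebp3 and Eif4enif1, which encode inhibitors and a transporter of eIF4E. NMuMG cells are a mouse mammary epithelial line that passes through an epithelial to mesenchymal transition under TGF-beta. All 6 libraries came from NMuMG cells at day 4 of TGF-beta: 3 had received siRNA against Mnt (siMnt) and 3 a non-targeting control siRNA (siNTC). Per the labels' protocols, cells were plated 16 hours before treatment, siRNA and TGF-beta were given together, and both were renewed on day 2. Both groups therefore carry siRNA and TGF-beta, and cells without either were not analysed here. The protein Mnt represses transcription as a partner of Max on E-box sequences, where Myc and Max also bind.

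Translation starts when the small ribosomal subunit, carrying the initiator tRNA delivered by eIF2, is brought to the cap of an mRNA by eIF4F and eIF3, scans to the start codon and is joined by the large subunit. The eIF4E-binding proteins (4E-BPs) block assembly of eIF4F until mTOR phosphorylates them, and eIF2B recharges eIF2 with GTP. In elongation eEF1A brings aminoacyl-tRNAs, eEF2 moves the ribosome along, and eIF5A, the only protein known to carry the amino acid hypusine, relieves stalls. Eif4e and several other factor genes are known targets of Myc, and elongation factor mRNAs are among the most abundant of dividing cells.

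Each library held 22323050 to 42193292 reads in the table, and the least covered member had 127 reads in its lowest library. Mnt was lower in all 3 siMnt libraries (613, 557 and 749 normalised read counts in replicates 1, 2 and 3) than in all 3 siNTC libraries (1316, 896 and 1596). Its log2 fold change was -0.96 ± 0.22 (limma adjusted p = 0.0546, or 0.00442 when libraries with the same number were treated as pairs). Of 7 epithelial markers 5 were in the table, with summed levels of 118617 to 146720 in siNTC and 129324 to 140806 in siMnt, and Epcam and Cldn7 were not analysed here. Krt8 and Krt18 made up most of these sums. By limma none passed: adjusted p was 0.765 for Krt8, 0.899 for Krt18, 0.263 for Krt7, 0.356 for Krt19 and 0.179 for Cdh1. Cdh1 was at 6495, 5813 and 10320 in siNTC and 11109, 9742 and 10867 in siMnt, and it passed in pairs (adjusted p = 0.0474, background 9.33%). Krt7 was at 4533, 5597 and 2944 against 3335, 2969 and 2985. Of 7 myeloid markers 5 were in the table, with sums of 963 to 1329 in siNTC and 2001 to 2300 in siMnt, mostly from Csf1r. Csf1r rose (757, 881 and 1196 in siNTC against 2074, 1995 and 1856 in siMnt, limma adjusted p = 0.0242), and so did Itgam at a low level (5.24, 4.43 and 8.40 against 28.1, 17.9 and 25.7, adjusted p = 0.0493). Cd68 did not pass (adjusted p = 0.765). Lyz2 (1.94 to 3.49 in siNTC and 4.90 to 11.9 in siMnt) and the pan-leukocyte gene Ptprc (1.29 to 6.65 and 2.45 to 3.58) were under the limit for testing. Of 6 fibroblast markers 4 gave sums of 308 to 396 and 410 to 564, and of 4 endothelial markers 2 gave 65.2 to 99.6 and 41.8 to 49.0. The part of these markers in the results was not tested. In bulk RNA, fewer cells of a type and less RNA per cell cannot be told apart.

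The unit is the normalised read count, meaning reads after division by a size factor for each library, and means carry the SD of n = 3 libraries. A log2 fold change is the siMnt mean minus the siNTC mean of log2(value + 1), with its standard error. Tests were made with limma, whose p-values were adjusted for all 12568 genes by the Benjamini-Hochberg method, and a gene passed under 0.05. Where the text speaks of pairs, the replicate number was added to the fit as a block.

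In siMnt cells 1 of the 60 translation factor genes rose, Eif5a2, and 0 fell by limma. Of all tested genes 2.56% rose and 1.37% fell (322 and 172 genes, or 540 and 558 once GC content and transcript length were corrected for), so the count of members was close to that background. At an unadjusted p under 0.05, 2 members were higher and 9 lower, where the background was 12.7% and 10.7%. edgeR gave 1 higher and 0 lower (background 2.29% and 1.25%), and DESeq2 gave 2 higher and 2 lower (6.71% and 4.89%). In pairs (the replicate block) 2 members rose, Eif5a2 and Eif4ebp2, and 3 fell, Eif2b3, Eif3j1 and Eif3j2, where the background was 9.33% and 6.56%. Correcting for GC content and length gave 2 higher, the same pair of genes, and 1 lower, Eif4g3 (4.33% and 4.47%), and doing so in pairs gave 2 higher and 7 lower (9.22% and 10.7%). At an adjusted p under 0.1 Eif5a2 and Eif4ebp2 were higher and Eif3j2 lower (6.46% and 4.17%), and without a variance trend 0 members passed (1.69% and 0.748%). The differences were small: 55 of the 60 log2 fold changes lay within 0.5 of 0. All 3 siMnt libraries lay above all 3 siNTC libraries for 4 members and below them for 13, which held for 15.6% and 15.9% of the tested genes.

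Leaving out a library moved these counts for the members and for all genes together. Without siNTC replicate 3, 2 members were higher and 8 lower, where 9.51% and 6.5% of tested genes were. Without siNTC replicate 2, 0 were higher and 1, Eif4g3, lower (1.11% and 0.621%). Without siMnt replicate 3, 0 members passed (0.629% and 0.366% of tested genes), and 0 members and 0% of tested genes passed in the fits that lacked replicate 1 of either group or siMnt replicate 2.

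**Figure D1:**
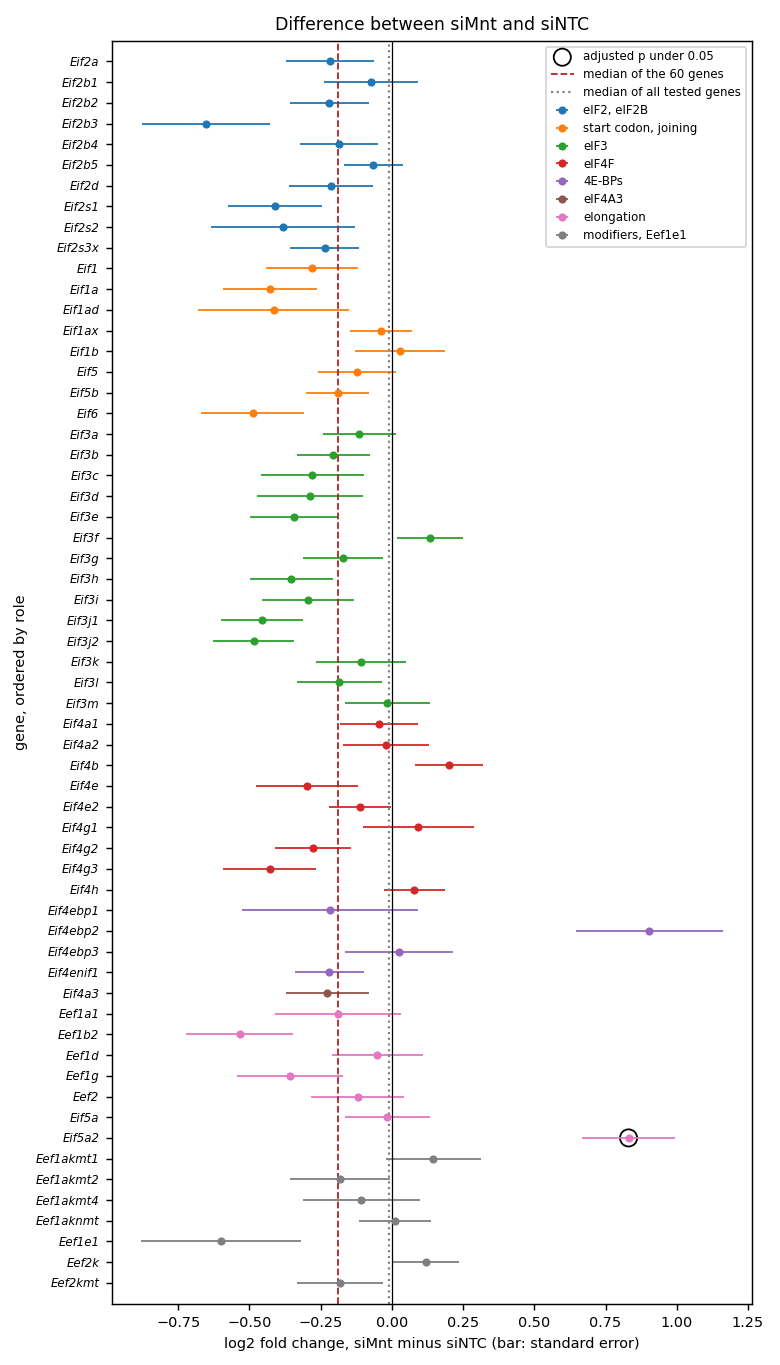
Log2 fold change of each of the 60 genes, siMnt minus siNTC (x axis), with its standard error as a bar, coloured by role and ordered by role on the y axis; the circle marks an adjusted p under 0.05. Eif5a2 at 0.83 is the circled gene, Eif4ebp2 lies at 0.90 with a wider bar, and the median of the 60 genes (-0.19, dashed) lies left of that of all tested genes (-0.01, dotted).

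Most members had a fold change below 0, and the size of this shift moved with the libraries used, most of all with siNTC replicate 2. Of the 60 log2 fold changes 49 were below 0 (81.7%, against 51.4% of all tested genes), and their median was -0.19 against -0.01. In siNTC replicate 2 the median member lay 0.33 above its own mean over the 6 libraries, whereas the median of all tested genes there was 0.01. For 42 members (70.0%) siNTC replicate 2 was the highest of the 6 libraries, as it was for 31.8% of all tested genes. siNTC replicate 3 was the highest for 1 member, with a median deviation of -0.07, the same as siMnt replicate 3. Within replicate numbers 1, 2 and 3 the median difference was -0.19, -0.34 and -0.01, and 50, 50 and 32 members were below 0. Without siNTC replicate 2 the median was -0.09 with 42 members below 0, and without siNTC replicate 3 it was -0.25 with 51. Leaving out siMnt replicate 1 gave -0.14 with 50. Across the 60 members the Spearman correlation of the deviation in siNTC replicate 2 was -0.33 with transcript length and -0.25 with GC content (-0.38 and -0.17 over all tested genes, which share that library). With GC content and length corrected for, the members' median log2 fold change was -0.22, with 51 below 0, against -0.06 over all tested genes. Members took 2.74% of all reads in siNTC replicate 2 and 2.04% to 2.29% in the other libraries.

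**Figure D2:**
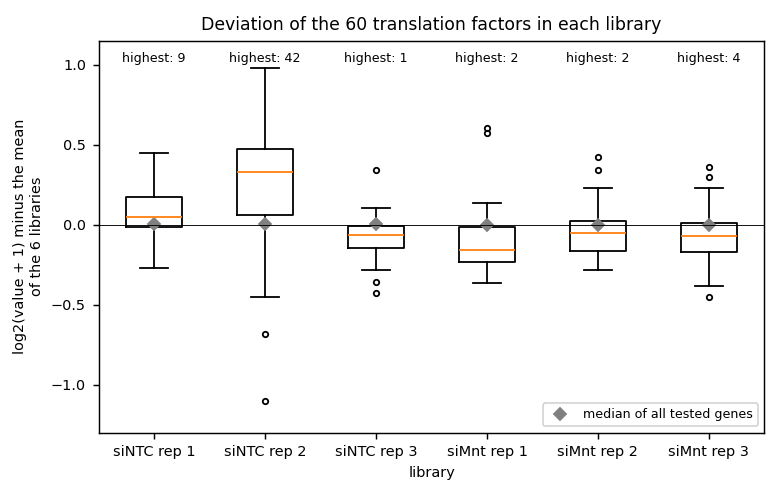
Deviation of the 60 genes from their own mean over the 6 libraries (y axis, log2(value + 1)), 1 box per library (box: quartiles, line: median, whiskers: 1.5 times the box height, circles: genes beyond them); diamonds give the median of all tested genes, and the number above each box says for how many genes that library was the highest. The box of siNTC replicate 2 lies above the other 5, with 42 of the 60 genes highest there.

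The controls also varied more among themselves than the siMnt libraries did. The median coefficient of variation of the members was 16.8% in siNTC and 6.10% in siMnt, and it was higher in siNTC for 56 of 60. Over all tested genes the medians were 17.8% and 9.30%. The widest control spread was that of Eif4ebp1 (coefficient of variation 48.8%), followed by Eef1e1 (45.1%) and Eif1ad (42.8%). In each of these siNTC replicate 2 was the high library. Eef1aknmt varied least, at 2.77% among the controls.

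**Figure D3:**
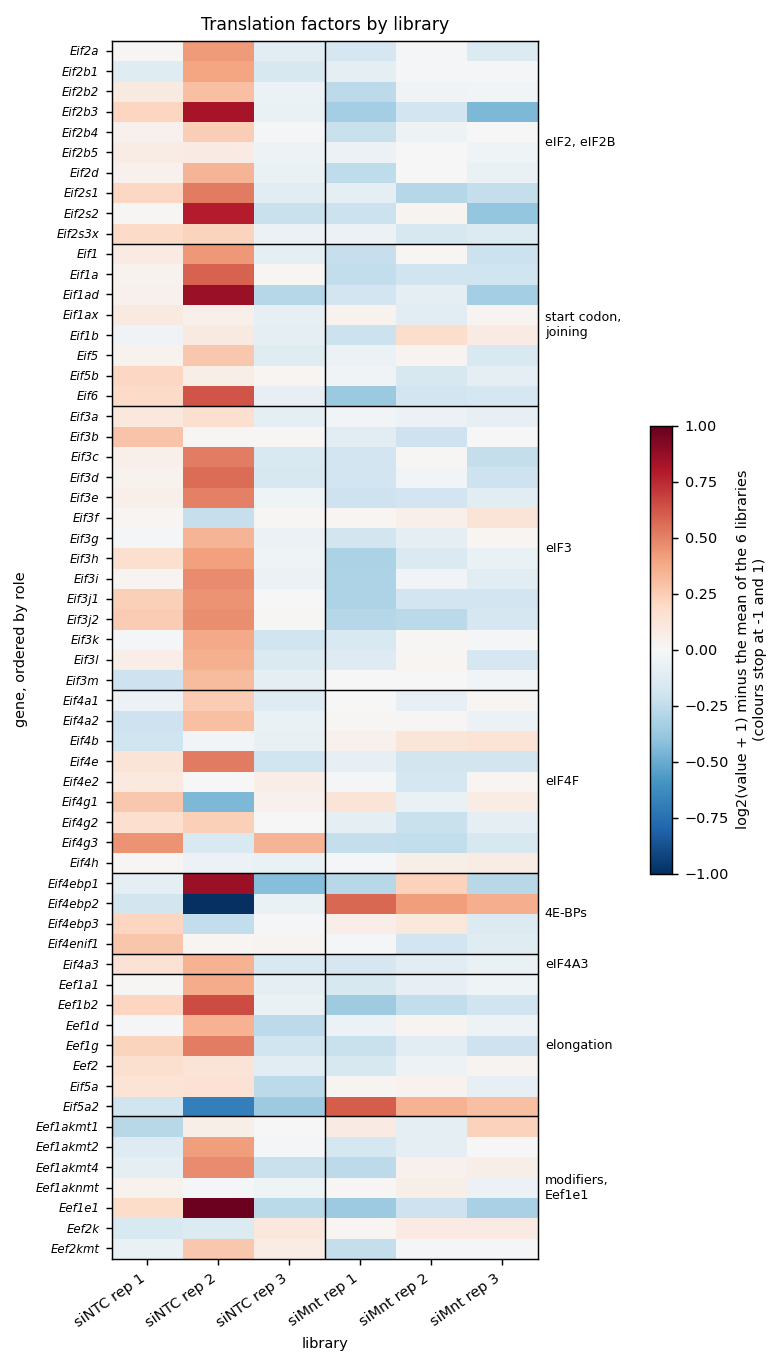
Each of the 60 genes (rows, grouped by role) in each library (columns); colour is log2(value + 1) minus the gene's mean over the 6 libraries, red above and blue below, with colours stopping at -1 and 1. The column of siNTC replicate 2 is red for most eIF2, eIF2B, eIF3 and elongation genes and blue for Eif4ebp2 and Eif5a2.

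Levels between genes were compared per kilobase of the longest coding transcript. Eef1a1, the tRNA-delivering factor eEF1A, stood far above the rest at 121890 ± 21159 normalised reads per kilobase in siNTC and 105925 ± 4259 in siMnt. Eef2 followed at 23506 ± 2335 and Eif5a at 11701 ± 1796 in siNTC. Next came Eef1b2 and Eef1g, subunits of the eEF1B exchange factor, at 10222 ± 2610 and 10163 ± 2447, and the start codon factor Eif1 at 9814 ± 1870. Neighbours among Eif5a, Eef1b2, Eef1g and Eif1 lay within 1 SD of each other. The genes with the highest log2 fold changes were among the scarcest: Eif4ebp2 at 123 ± 42.3 and Eif5a2 at 121 ± 20.2 per kilobase ranked 58 and 59 of 60 in siNTC. The longest transcript may not be the one these cells use, which would shift a gene's place.

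By limma, Eif5a2 rose among the 7 elongation factor genes, 0 fell and 6 did not pass. Eif5a2 encodes the less common isoform of eIF5A. It stood at 702, 502 and 628 normalised read counts in siNTC replicates 1, 2 and 3 and at 1226, 1025 and 993 in siMnt replicates 1, 2 and 3. The groups did not overlap, and the lowest siMnt library lay above the highest control. The mean went from 611 ± 101 to 1081 ± 127 (n = 3 each), 177% of the control level, with a log2 fold change of 0.83 ± 0.16 and limma adjusted p = 0.0391. Within replicate numbers 1, 2 and 3 the log2 difference was 0.80, 1.03 and 0.66. The call changed with the libraries used: Eif5a2 passed without siNTC replicate 3 (limma adjusted p = 0.0197) but not without siNTC replicate 1 or 2 (0.103 and 0.054) or siMnt replicate 1, 2 or 3 (0.194, 0.148 and 0.085), with log2 fold changes between 0.70 and 0.94. For Eif5a2 by itself the exact permutation test (two-sided) gave p = 0.1, and no smaller value can come from 3 libraries on each side.

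Its widespread paralog Eif5a stood at 18260, 18351 and 13835 in siNTC and at 16861, 16967 and 15672 in siMnt. The groups overlapped (log2 fold change -0.02 ± 0.15, limma adjusted p = 0.963). Per kilobase, Eif5a2 made up 1.09%, 0.776% and 1.28% of the reads of both genes in siNTC replicates 1, 2 and 3 and 2.04%, 1.70% and 1.78% in siMnt. Eif5a2 remained the minor isoform in each library. Both proteins depend on the hypusine enzymes: Dhps had a log2 fold change of 0.07 ± 0.17 (limma adjusted p = 0.855) and Dohh one of -0.23 ± 0.17 (adjusted p = 0.444).

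The promoter of Eif5a2 is shown because it holds, at 2 places, the E-box sequence that Mnt and Max recognise. RefSeq (GRCm38.p6) places the 250 bases before its start at chr3:28781027-28781276 on the plus strand. E-boxes (CACGTG) are in capitals and begin at positions -142 and -117 from the start.
Eif5a2: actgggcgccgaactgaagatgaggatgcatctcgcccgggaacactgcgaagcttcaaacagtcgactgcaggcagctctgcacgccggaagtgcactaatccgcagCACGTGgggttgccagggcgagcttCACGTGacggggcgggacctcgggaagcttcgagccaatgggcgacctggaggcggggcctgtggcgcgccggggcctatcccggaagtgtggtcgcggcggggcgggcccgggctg
Of 9926 tested genes with a RefSeq window, 128 (1.29%) had 2 or more CACGTG in the same window. Among the members Eif4e (positions -228 and -64) and Eif4g1 (-54 and 16) also held 2 in the same window. Their log2 fold changes were -0.30 and 0.09, and neither passed. A match is a description of the letters, and binding was not measured here.

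The other elongation genes did not pass by limma with all libraries and no correction. Eef1a1 was at 204541, 261669 and 189803 in siNTC and 181717, 191626 and 196745 in siMnt, overlapping groups in which siNTC replicate 2 was high (log2 fold change -0.19 ± 0.22, limma adjusted p = 0.651). 7 other genes of GENCODE M21 carry copies of its transcript at 95% identity or more over at least 50% of its length, so its reads are uncertain. Eef1b2, named after its values were seen, was at 18663, 25361 and 15438 in siNTC and 12576, 13601 and 14054 in siMnt. Its groups did not overlap, but siNTC replicate 3 lay close to siMnt (log2 fold change -0.53 ± 0.19, limma adjusted p = 0.139). Without siNTC replicate 3 it passed (0.0249, background 6.5%), but not with any other single library left out (0.154 to 0.396). DESeq2 called Eef1b2 lower (adjusted p = 0.0487, background 4.89%), and edgeR did not (adjusted p = 0.138). With the GC and length correction in pairs Eef1b2 passed too (limma adjusted p = 0.0476, background 10.7%). The partner subunit Eef1g, also named after its values were seen, had -0.36 ± 0.18 (adjusted p = 0.284), and with 3 near-identical copies its reads are uncertain too. Eef2 and Eef1d had -0.12 and -0.05.

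**Figure D4:**
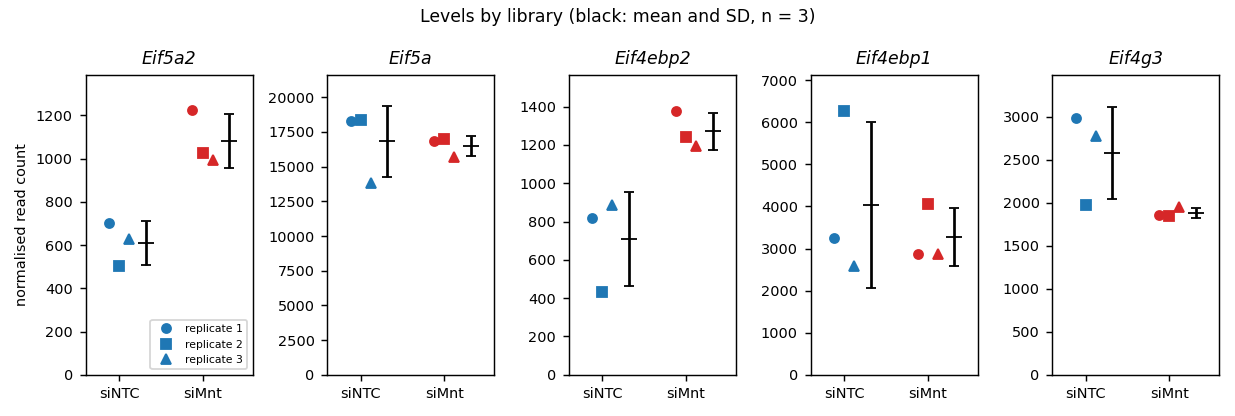
Normalised read counts (y axis, from 0) of 5 genes in each library, blue for siNTC and red for siMnt, with replicates 1, 2 and 3 as circle, square and triangle and the mean and SD (n = 3) in black. Eif5a2 and Eif4ebp2 are higher in all 3 siMnt libraries than in any control, whereas Eif5a and Eif4ebp1 overlap between groups and Eif4g3 is lower in siMnt, with siNTC replicate 2 close to it.

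Among the eIF4E-binding inhibitors, Eif4ebp2 had the largest log2 fold change of all 60 genes. With all libraries, no block and no correction for GC content and length, it did not pass by limma. It stood at 816, 431 and 886 in siNTC and at 1378, 1242 and 1192 in siMnt, so the groups did not overlap and siNTC replicate 2 was the lowest. The mean was 711 ± 245 in siNTC and 1271 ± 95.8 in siMnt (log2 fold change 0.90 ± 0.26, limma adjusted p = 0.0879). In pairs it passed (adjusted p = 0.0177, background 9.33%), as it did without siNTC replicate 3 (0.0244, background 9.51%). It also passed by DESeq2 (adjusted p = 0.0186) and with GC content and length corrected for (limma adjusted p = 0.0479), but not by edgeR (adjusted p = 0.0963). Without siNTC replicate 2 its log2 fold change was 0.58 in place of 0.90 (adjusted p = 0.0542). Nor did it pass without siNTC replicate 1 (0.177) or siMnt replicate 1, 2 or 3 (0.291, 0.253 and 0.173). Eif4ebp1, the best known member and the most expressed here, was at 3239, 6275 and 2585 in siNTC and 2866, 4065 and 2869 in siMnt. Replicate number 2 was the high library in both groups, and the groups overlapped (-0.22 ± 0.31, adjusted p = 0.72). Its direction rested on 1 library, since without siNTC replicate 2 it was 0.15. Eif4ebp3 was scarce and overlapping, at 199, 144 and 170 against 179, 184 and 156 (0.02 ± 0.19, adjusted p = 0.956). Its reads are uncertain, since 67.7% of its transcript has an identical copy in another gene. The 4E transporter Eif4enif1, which carries eIF4E to the nucleus, was lower in each siMnt library than in any control, with -0.22 ± 0.12 (adjusted p = 0.312).

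The eIF4F complex joins the cap-binding protein eIF4E, the scaffold eIF4G and the helicase eIF4A. Of the 9 genes listed with it, which include helicase cofactors and the relatives Eif4e2 and Eif4g2, 0 passed by limma. Their median log2 fold change was -0.05. Before adjustment 1 was lower under 0.05, where 10.7% of all tested genes were. edgeR and DESeq2 each called 0 (background 1.25% and 4.89% lower). Of the scaffolds, Eif4g3 was at 2981, 1968 and 2769 in siNTC and 1853, 1842 and 1950 in siMnt. The groups did not overlap, by a narrow margin to siNTC replicate 2 (-0.43 ± 0.16, limma adjusted p = 0.168). Without siNTC replicate 2 Eif4g3 fell by 0.61 on the log2 scale (adjusted p = 0.0399), in a fit where 0.621% of all tested genes fell. It fell too once GC content and transcript length were corrected for (-0.57, adjusted p = 0.0212), where 4.47% of genes did. Eif4g1 was at 29837, 18136 and 25571 against 27177, 23710 and 26048 (0.09 ± 0.20, adjusted p = 0.819), the low library again being siNTC replicate 2. Eif4g2, also known as Dap5, was at 31539, 33116 and 28187 against 26310, 24002 and 26170, without overlap (-0.28 ± 0.13, adjusted p = 0.258).

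Of the cap-binding proteins, Eif4e was at 4525, 5953 and 3608 in siNTC and 3922, 3647 and 3661 in siMnt (-0.30 ± 0.18, adjusted p = 0.354). Its repressive relative Eif4e2 was at 2241, 2101 and 2195 against 2075, 1859 and 2127 (-0.11 ± 0.11, adjusted p = 0.579). In both the groups overlapped. The helicase paralogs Eif4a1 and Eif4a2 overlapped between groups, at -0.05 ± 0.14 and -0.02 ± 0.15 on the log2 scale (adjusted p = 0.879 for Eif4a1, 0.952 for Eif4a2). Eif4a3 was at -0.23 ± 0.15 (adjusted p = 0.387). Eif4a1 and Eif4a3 each have 3 near-identical copies in GENCODE M21, so their reads are uncertain. The helicase cofactor Eif4b, named after its values were seen, was higher in all 3 siMnt libraries (17388, 18313 and 18576) than in the controls (14739, 16556 and 16006), a difference of 0.20 ± 0.12 that did not pass (adjusted p = 0.35).

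All 10 genes of eIF2, eIF2B and the related delivery factors Eif2a and Eif2d had a log2 fold change below 0, with a median of -0.22. By limma 0 passed, and 2 were lower under 0.05 before adjustment, where 10.7% of all tested genes were. edgeR and DESeq2 each called 0 (background 1.25% and 4.89% lower). For all 10, siNTC replicate 2 was the highest library. Within replicate numbers 1, 2 and 3 the median difference was -0.26, -0.39 and -0.01, and without siNTC replicate 2 it was -0.10. Eif2b3, the gamma subunit of eIF2B, was at 680, 1038 and 560 in siNTC and 463, 513 and 428 in siMnt. Its groups did not overlap (-0.65 ± 0.23, limma adjusted p = 0.134). Eif2b3 passed in pairs (0.0233, background 6.56%) and without siNTC replicate 3 (0.0288, background 6.5%). With any other single library left out it did not pass (0.159 to 0.344). Eif2s2, eIF2 beta and the most expressed of these genes, was at 8152, 13939 and 6916 against 6982, 8229 and 6186 (-0.38 ± 0.25, adjusted p = 0.4). The difference was mostly siNTC replicate 2, without which it was -0.08. The X-linked eIF2 gamma gene Eif2s3x had -0.24 ± 0.12 (adjusted p = 0.284), and the alpha subunit gene Eif2s1, the target of the eIF2 kinases, named after its values were seen, had -0.41 ± 0.17 (adjusted p = 0.186).

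Of the 14 eIF3 genes 13 had a log2 fold change below 0, with a median of -0.24, and 0 passed by limma. Before adjustment 3 were lower under 0.05 (Eif3h, Eif3j1 and Eif3j2), where 10.7% of all tested genes were. edgeR called 0 and DESeq2 called 1 lower, Eif3j2 (background 1.25% and 4.89% lower). eIF3 is the largest initiation factor, a scaffold between the small ribosomal subunit and eIF4F. For 12 of them siNTC replicate 2 was the highest library. Within replicate numbers the median was -0.24, -0.47 and -0.03, and without siNTC replicate 2 it was -0.09. The loosely attached subunit eIF3j is encoded by Eif3j1 and Eif3j2, whose transcripts are 99.4% identical over the whole of Eif3j2, so their reads cannot be assigned to either with certainty. Eif3j2 was at 1281, 1486 and 1086 in siNTC and 881, 894 and 957 in siMnt, without overlap (-0.48 ± 0.14, limma adjusted p = 0.0925). It passed in pairs (adjusted p = 0.041), as did Eif3j1 (0.0434, log2 fold change -0.46 ± 0.14). Eif3a, the largest subunit, was at 23092, 23894 and 20067 against 21008, 20558 and 20185 (-0.12 ± 0.13, adjusted p = 0.633). Eif3f was the gene above 0, at 0.13 ± 0.12 (adjusted p = 0.524). Its groups did not overlap, by a narrow margin (highest siNTC library 5318, lowest siMnt library 5334). The other subunits ran from -0.35 for Eif3h to -0.02 for Eif3m, and in Eif3b, Eif3e and Eif3h the groups did not overlap either. Eif3e, Eif3h and Eif3m each have 1 near-identical copy and are uncertain for that reason.

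Of 8 genes listed under start codon selection and subunit joining, Eif1ad among them, 7 had a log2 fold change below 0 and 0 passed by limma. Before adjustment 2 were lower under 0.05, where 10.7% of all tested genes were. edgeR and DESeq2 each called 0 (background 1.25% and 4.89% lower). Eif6, which keeps the large subunit from joining too early, was at 5239, 7086 and 4330 in siNTC and 3557, 4026 and 4070 in siMnt. The groups did not overlap (-0.49 ± 0.18, limma adjusted p = 0.158). Eif6 passed without siNTC replicate 3 (0.0298, background 6.5%) but not with any other single library left out (0.189 to 0.430). It also passed with the GC and length correction in pairs (-0.53, adjusted p = 0.0383, background 10.7%). The scanning factor Eif1 was at 12294, 15714 and 10912 against 9914, 11823 and 10048, overlapping groups (-0.28 ± 0.16, adjusted p = 0.337). Its paralog Eif1b was at 346, 377 and 333 against 306, 401 and 375 (0.03 ± 0.16, adjusted p = 0.938), and its sign turned when siNTC replicate 3, siMnt replicate 2 or siMnt replicate 3 was left out. Eif1a, named after its values were seen, was lower in each siMnt library than in any control (-0.43 ± 0.16, limma adjusted p = 0.169). With the GC and length correction in pairs Eif1a passed (-0.40, limma adjusted p = 0.0432, background 10.7%). Of the other genes, Eif1ad had -0.42, Eif5b, the GTPase of subunit joining, -0.19, Eif5, which triggers GTP hydrolysis by eIF2, -0.12, and Eif1ax -0.04.

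Of the 7 genes that modify elongation factors or only share their name 0 passed by limma, and edgeR and DESeq2 each called 0. Before adjustment 0 were under 0.05 (background 12.7% higher and 10.7% lower). Eef1e1, a scaffold protein of the tRNA synthetase complex, was at 945, 1644 and 691 in siNTC and 646, 720 and 664 in siMnt (-0.60 ± 0.28, limma adjusted p = 0.247). Without siNTC replicate 2 its difference was -0.26, and without siNTC replicate 3 it passed (0.0356, background 6.5%). With any other single library left out it did not pass (0.359 to 0.497). Eef2k, the kinase that inhibits eEF2, was at 1526, 1543 and 1818 against 1714, 1787 and 1794, overlapping groups (0.12 ± 0.12, adjusted p = 0.574), and after the correction for GC content and length it was -0.02. The 5 methyltransferase genes, at means of 290 to 510 in siNTC, ran from -0.18 for Eef2kmt and Eef1akmt2 to 0.14 for Eef1akmt1.

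The E-box sequence was looked for in the promoter windows of all members. The motif searched was CACGTG, which reads the same on both strands, in windows of 250 bases before to 50 after each RefSeq start (GRCm38.p6), and the search was chosen after the fold changes had been seen. Of 60 members 47 matched a window, and 14 of them held the motif (29.8%), against 1154 of 9926 tested genes (11.6%) and 8.09% of all 27025 genes with a window. By window the shares were 26.2% and 9.79%. No test was made of this difference. The 14 were Eef1akmt4, Eef1aknmt, Eef2, Eef2k, Eif1b, Eif3a, Eif3f, Eif3k, Eif4a1, Eif4e, Eif4g1, Eif4h, Eif5a and Eif5a2. Of these 7 had a log2 fold change above 0 and 7 below, with a median of 0.00, and of the 33 members without the motif 2 were above 0, with a median of -0.21. Without siNTC replicate 2 the medians were 0.05 and -0.09. Over all tested genes the medians with and without the motif were 0.00 and -0.01. With GC content and length corrected for, Eef1aknmt, Eef2k, Eif4g1 and Eif4h were below 0 (-0.09, -0.02, -0.05 and -0.01). Eif1b, Eif3f and Eif5a2 stayed above 0 (0.01, 0.07 and 0.80), and all other members with the motif were below 0. The even split of the 14 around 0 was therefore not seen in that fit. Of the members without the motif, Eif4b and Eif4ebp2 stayed above 0 (0.13 and 0.77), and Eif3m and Eif4a2 then lay just above 0 (0.01 and 0.003). The median of all tested genes in that fit was -0.06. Eif4ebp2 had no CACGTG in its window, and 13 members had no window in the table.

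For 4 members 1 E-box each is printed with 10 bases to each side, to show the sequence around the shared core. They are an elongation factor, the cap-binding protein, its scaffold and the paralog of Eif5a2. The core is in capitals, and the motif begins at position -43 for Eef2 (chr10:81176578-81176603, plus strand), -64 for Eif4e (chr3:138527194-138527219, plus strand), -54 for Eif4g1 (chr16:20672663-20672688, plus strand) and -74 for 1 of the starts of Eif5a (chr11:69921445-69921470, minus strand).
Eef2: ccggcgccgtCACGTGacgcacccaa
Eif4e: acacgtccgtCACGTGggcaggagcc
Eif4g1: cagtgggtgtCACGTGatggggcgga
Eif5a: ggggcggggtCACGTGtgtgcgtcat
Their log2 fold changes were -0.12, -0.30, 0.09 and -0.02, and none of the 4 genes passed. Further E-boxes, not printed, begin at -228 for Eif4e, at 16 for Eif4g1 and at -178 for another start of Eif5a.

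**Figure D5:**
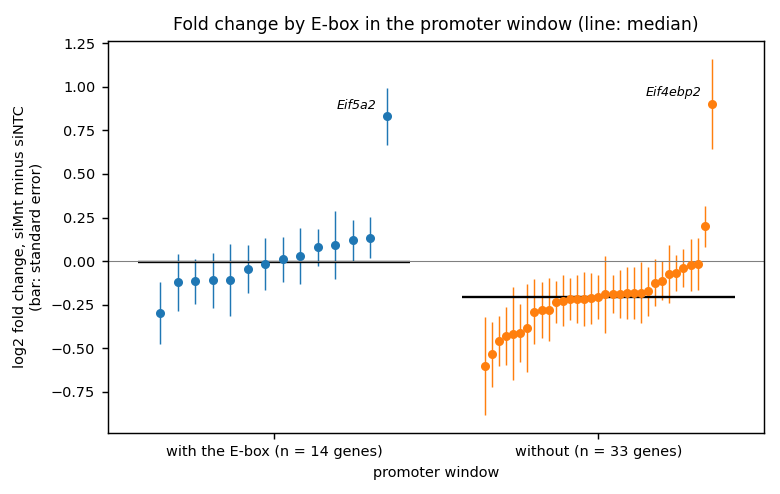
Log2 fold change, siMnt minus siNTC (y axis, bar: standard error), of the 47 genes with a promoter window, split by whether the window holds CACGTG and ordered by value within each set; the black line is the median of the set. The 14 genes with the motif spread around 0 with Eif5a2 at the top, and 31 of the 33 without it lie below 0, with Eif4ebp2 at the top. Values are not corrected for GC content and length; with that correction most of the 14 lay below 0.

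Other genes of protein synthesis were taken from 8 lists of 80 symbols, of which 77 were tested. By limma 0 of the 77 passed, while 3 were higher and 11 lower under 0.05 before adjustment (background 12.7% and 10.7%). edgeR called 0 and DESeq2 called 5, all lower (6.71% higher and 4.89% lower over all tested genes). In pairs 2 were higher and 11 lower, where the background was 9.33% and 6.56%. Of 22 cytosolic aminoacyl-tRNA synthetases and their scaffold proteins, the enzymes that load tRNAs, 21 had a log2 fold change below 0, with a median of -0.34, and 7 were lower in pairs (background 6.56%). For 21 of the 22 siNTC replicate 2 was the highest library, as it was for 31.8% of all tested genes, and without it the median was -0.18. The leucyl-tRNA synthetase Lars, named after its values were seen, was at 6265, 8857 and 4978 in siNTC and 3330, 4205 and 3481 in siMnt, without overlap (-0.83 ± 0.21, limma adjusted p = 0.0658, and 0.00678 in pairs). Of 9 genes of hypusine and diphthamide synthesis, the modifications of eIF5A and eEF2, 3 were lower in pairs (background 6.56%), and the median was -0.36. The 3 were the diphthamide genes Dph1, Dph2 and Dph5, named after their values were seen (adjusted p = 0.024, 0.0471 and 0.0456 in pairs), and the hypusine enzymes Dhps and Dohh did not pass in pairs either (0.748 and 0.357).

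Of 12 genes of mTOR and MNK signalling to the cap complex, 1 was higher in pairs (background 9.33%), and the median was -0.01. That was Mknk2, a kinase of eIF4E, named after its values were seen, at 2295, 1391 and 3020 in siNTC and 3519, 3384 and 3979 in siMnt (0.77 ± 0.25, limma adjusted p = 0.125, and 0.0179 in pairs). Of 6 eIF2 kinases and phosphatase subunits 0 passed in either fit, and the 4 kinases Eif2ak1, Eif2ak2, Eif2ak3 and Eif2ak4 had log2 fold changes of -0.10, -0.08, -0.04 and 0.11. Of 10 mitochondrial translation factors 0 passed in either fit, with a median of -0.14. The medians of termination and recycling factors (8 genes), poly(A)-binding proteins and partners (7) and selenocysteine incorporation (3) were -0.16, -0.08 and -0.12. In pairs 1 termination and recycling gene was lower, Abce1 (-0.53 ± 0.18, limma adjusted p = 0.0367, background 6.56%). Among the poly(A) genes 1 was higher in pairs, Paip2b (0.39 ± 0.13, limma adjusted p = 0.0438, background 9.33%). Both were named after their values were seen, and neither passed without the block (adjusted p = 0.126 each). Of the selenocysteine genes 0 passed in either fit.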

How the data were processed

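RNA from 6 NMuMG libraries was sequenced, 3 siNTC and 3 siMnt, grouped and numbered by the titles. The authors deposited 1 table of normalised values, a signal that is never negative. Build mm9 and the tools TopHat2 2.1.0, DESeq 3.5 and DESeq2 are listed, without their role, in the submitters' processing notes; for counting tool, annotation and strand the sources used here give nothing. From the values, the deposited signal is whole reads scaled by a single factor for each library (99.75% of values came within 0.05 of a whole read). Values were tested as log2(value + 1) with limma 3.58.1 (R 4.3.3, empirical Bayes with a trend), for genes with a mean of at least 10. Fold changes on this scale understate changes of low genes. Also tried were pseudocounts of 0.5 and 5, other filters and scalings, no variance trend, edgeR 4.0.16 and DESeq2 1.42.0 on the recovered reads, the block, a loess correction for GC content and length (GENCODE M21, 99.3% of tested genes) and leaving out each library. The fits were tested on simulated data. Whether replicates were separate cultures is not in the labels: p-values reflect spread among these libraries, possibly technical. Same-numbered libraries deviated together (correlations across genes 0.28, 0.50 and 0.35; other pairs -0.38 to 0.03), so the number was used as a pairing; it comes from the titles. Copies were sought with blastn 2.17.0. The members and lists were chosen with earlier results of these data known. Named are Mnt, members that passed, the most expressed member and that with the smallest adjusted p of each role, and fixed sets of paralogs (25 genes); all other genes were named after their values were seen. Proteins were not analysed here.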

Additional observations from a re-analysis of the deposited data

How the results depend on the processing

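Eif5a2 was higher in siMnt in all 18 alternatives run and passed in 12 of them. It did not pass without a variance trend (limma adjusted p = 0.0603) or without any single library other than siNTC replicate 3. Members called higher numbered 0 without a variance trend and 2 by DESeq2, with the replicate block, with the correction for GC content and length, with both, and at an adjusted p under 0.1. Members called lower numbered 2 by DESeq2, 3 with the replicate block, 1 with the GC and length correction, 7 with both and 1 at an adjusted p under 0.1. Leaving out single libraries gave 0 to 2 higher and 0 to 8 lower. Over all tested genes the higher and lower counts were 212 and 94 without a variance trend, 843 and 614 by DESeq2, 1173 and 825 with the replicate block, 540 and 558 with the GC and length correction, 1150 and 1330 with both, and 207 higher with a mean of at least 50. Without single libraries they ran from 0 to 1195 and from 0 to 817. The members' median log2 fold change stayed below 0 in every alternative run, from -0.25 to -0.09. The sign turned for 8 named genes, none of which passed. With the GC and length correction, in pairs or not, Eef2k was -0.0165, Eif4a2 0.0030 and Eif4g1 -0.0464. Without single libraries the ranges were -0.0522 to 0.1422 for Eif1b, -0.1208 to 0.0697 for Eif4a1, -0.1309 to 0.1247 for Eif4a2, -0.4849 to 0.1546 for Eif4ebp1, -0.0921 to 0.1404 for Eif4ebp3, -0.1095 to 0.2497 for Eif4g1 and -0.1507 to 0.0530 for Eif5a. Among the 25 genes named by rule, the replicate block by itself changed the calls of Mnt, Eif2b3, Eif3j2 and Eif4ebp2 and no other. Added to the GC and length correction, it changed those of Eif2b3, Eif3j2 and Eif6. Each member had at least 127 reads in every library, and 3 libraries per group limit the precision.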
